A study of Danio rerio with 20 samples.

Results

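Editing at the first guide sites of tlr4ba and tlr4bb was compared in 4 of the 20 samples of the series. They were picked by guide and fish number, with the indel shares of both sites already known, as both fish (fish 3 and fish 4) read with tlr4ba-sg1 and the same fish numbers read with tlr4bb-sg1. Each sample was genomic DNA of a zebrafish melanoma made by TEAZ, in which transgenes are electroporated into adult skin. All 4 carried the knockout label TLR4, and tdTomato-positive, Hoechst-positive cells had been sorted before the DNA was extracted. The labels give neither the promoter that drove Cas9 or tdTomato nor the age of the fish, and no unedited tissue was analysed here. Tissue identity could not be checked in DNA reads of 1 amplicon. The labels do not say whether 2 samples with the same fish number come from 1 animal, and p-values here measure only the spread between samples.

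Toll-like receptor 4 is a membrane receptor of innate immunity that in mammals, together with MD-2, recognises lipopolysaccharide and signals to NF-kB. Zebrafish carry several tlr4 paralogs, and tlr4ba (ENSDARG00000019742) and tlr4bb (ENSDARG00000022048) are among them. A guide RNA directs Cas9 to a matching site, Cas9 cuts both strands, and repair by end joining leaves short insertions and deletions (indels). When a cut cell expands into a tumour, its repair product is copied into every descendant, so that an allele at a high share need not stand for many separate repair events. The guide sequences, the exon at each site and the coordinates of the sites were not analysed here.

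Depth was 381962 reads in fish 3 and 453413 reads in fish 4 at tlr4ba-sg1, and 242556 and 205987 reads at tlr4bb-sg1. Percents below are of classified reads, which are all reads except those in the row Other, unless another base is named. An allele is written as its start, length and type, so that -14:1D is a deletion of 1 bp at position -14 and -15:1I an insertion of 1 bp at position -15. The files number bases -1 and 1 as neighbours, and position 0 here means the gap between those bases. A 95% Wilson interval is given where a value rests on few reads, and a count of 0 is taken to allow up to 3 reads. Both cover counting error only, since PCR reads without molecular identifiers are not independent molecules. The 10 measures compared between the sites were each tested by an exact two-sided permutation test. With 2 against 2 samples its smallest p is 0.333, so no comparison could pass 0.05 and each fish is described.

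The tlr4ba site carried indels in a large share of reads in both tumours, and the tlr4bb site carried almost none. The indel percent was 36.8% in fish 3 and 77.9% in fish 4 at tlr4ba-sg1, against 0.044% (102 reads) and 0.045% (91 reads) at tlr4bb-sg1. Both tlr4ba samples lay above both tlr4bb samples, with a mean difference of 57.3 points (exact permutation p = 0.333, Benjamini-Hochberg p = 0.417 over the 10 measures). The tlr4bb value of each fish lay within the interval of the other (0.036 to 0.053 in fish 3, 0.037 to 0.056 in fish 4), and those of tlr4ba lay far apart.

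At tlr4ba-sg1 the indels were gathered on a single base. Base -14 was removed in 139802 indel reads of fish 3 (99.5% of its indel reads) and in 350946 of fish 4 (99.6%). The allele -14:1D alone reached 36.6% in fish 3, with an interval of 36.5 to 36.8, and 62.0% in fish 4, with an interval of 61.9 to 62.2. Its presence before editing was not tested, without unedited tissue. Each of the next 4 deletions by mean share also took out base -14. They were -14:12D, which ran to position -3, -17:5D to -13, -17:4D to -14 and -15:3D to -13. These 4 deletions separated the fish. Fish 4 held 37039 reads of -14:12D (8.19%), 28686 of -17:5D (6.34%), 3407 of -17:4D (0.753%) and 1004 of -15:3D (0.222%). Fish 3 held 1 read of -17:5D and 0 of the other 3, which allows up to 0.000786%. Their lengths of 12 and 3 bp are multiples of 3, and those of 5 and 4 bp are not.

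Insertions at tlr4ba-sg1 were rare, and the 2 most abundant lay beside the same base and differed between the fish. The allele -14:1I had 240 reads in fish 3 (0.0629%) and 1 read in fish 4. The allele -15:1I had 0 reads in fish 3 and 965 in fish 4 (0.213%). Each fish therefore held 1 of these insertions at 240 reads or more, and the insertion of the other fish at 1 read or none.

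**Figure D1:**
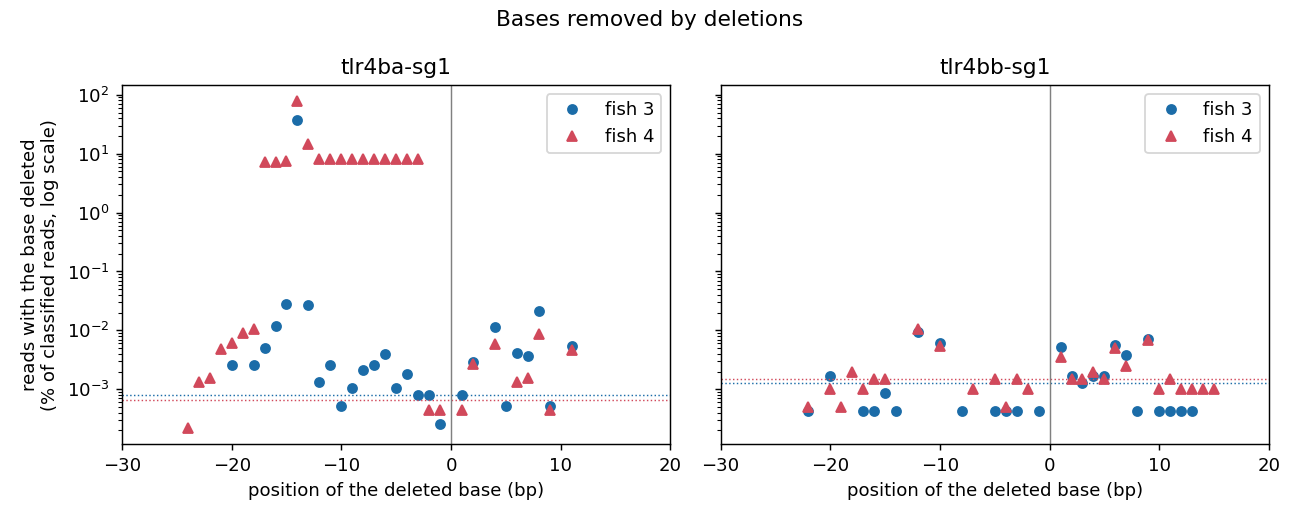
Share of classified reads in which each base was deleted (log scale), by position, with tlr4ba-sg1 on the left and tlr4bb-sg1 on the right. Circles are fish 3, triangles fish 4, the vertical line marks position 0 and each dotted line is the share of 3 reads in that fish; bases with 0 reads are not drawn. At tlr4ba-sg1 base -14 stood at 36.6% and 77.6%, and the long deletions of fish 4 formed a plateau from -17 to -3, while the highest base at tlr4bb-sg1 stood at 0.0104%.

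The base counts of the plot of deleted bases show the same contrast from position to position. At tlr4ba-sg1, base -13 was deleted in 0.0273% of the reads of fish 3 and in 14.8% of fish 4, next to 36.6% and 77.6% at base -14. Base -12 stood at 0.00131% in fish 3 and 8.21% in fish 4. At tlr4bb-sg1, the most often deleted base was -12, at 0.00941% in fish 3 and 0.0104% in fish 4. Base -14 was deleted there in 1 read of fish 3 and 0 of fish 4.

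The share of indel reads within 10 bp of position 0 also differed between the 2 sites. The share of indel reads touching the 10 bp on either side of position 0 was 0.149% in fish 3 and 10.6% in fish 4 at tlr4ba-sg1, against 70.6% (interval 61.1 to 78.6) and 63.7% (interval 53.5 to 72.9) at tlr4bb-sg1. The groups did not overlap, and the mean difference was -61.8 points (exact permutation p = 0.333, Benjamini-Hochberg p = 0.417). The value depends on where base -14 falls: with a window of 15 bp the shares averaged 99.95% at tlr4ba-sg1 and 93.2% at tlr4bb-sg1, a difference of 6.80 points. The tlr4ba-sg1 fish 4 share comes from 37230 reads, of which 37039 were -14:12D, the deletion that reaches position -3. At tlr4bb-sg1, indel starts ran from -22 to 9 in fish 3 and from -22 to 11 in fish 4. Much of that span lies within 10 bp of position 0, and whether the tlr4bb-sg1 shares exceed an even spread was not tested. They thus do not show that tlr4bb-sg1 indels gather near position 0.

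Most indel reads of both sites were deletions of 1 bp. At tlr4ba-sg1 they made up 99.8% of indel reads in fish 3 and 79.8% in fish 4, against 86.3% (interval 78.3 to 91.6) and 83.5% (interval 74.6 to 89.7) at tlr4bb-sg1. The samples of the 2 sites overlapped, and the difference of 4.87 points had an exact permutation p = 1. Deletions of 2 bp or more held 31 reads in fish 3 and 70299 in fish 4 at tlr4ba-sg1, against 1 and 4 reads at tlr4bb-sg1. The mean deleted length per deletion-bearing read was 1.0006 bp in fish 3 and 2.52 bp in fish 4 at tlr4ba-sg1, and 1.23 and 1.33 bp at tlr4bb-sg1 (difference 0.48 bp, exact permutation p = 1). Without tlr4ba-sg1 fish 4 this difference was -0.28 bp, and without tlr4ba-sg1 fish 3 the difference in 1-bp deletions was -5.13 points.

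Reads were spread over alleles in opposite ways at the 2 sites. Of the indel reads at tlr4ba-sg1, the most abundant allele took 99.5% in fish 3 and 79.6% in fish 4, and it was -14:1D in both. At tlr4bb-sg1 it was -12:1D in both fish, with 22 of 102 indel reads in fish 3 (21.6%, interval 14.7 to 30.5) and 21 of 91 in fish 4 (23.1%, interval 15.6 to 32.7). The effective number of indel alleles (the inverse Simpson index, which equals the number of alleles if all are equally common) was 1.01 in fish 3 and 1.53 in fish 4 at tlr4ba-sg1, against 8.83 and 9.97 at tlr4bb-sg1. The groups did not overlap, with a difference of -8.13 alleles (exact permutation p = 0.333, Benjamini-Hochberg p = 0.417).

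The plain number of alleles ran the other way. Fish 3 and fish 4 listed 52 and 75 indel alleles at tlr4ba-sg1, of which 16 and 27 had 1 read, against 24 and 26 alleles at tlr4bb-sg1, of which 15 and 10 had 1 read. At an equal depth of 201223 classified reads, 41.2 and 55.7 alleles were expected at tlr4ba-sg1 and 21.9 and 26.0 at tlr4bb-sg1. The difference of 24.5 alleles had an exact permutation p = 0.333 (Benjamini-Hochberg p = 0.417). The equal depth is of classified reads and not of indel reads. Indel reads numbered 140535 in fish 3 and 352502 in fish 4 at tlr4ba-sg1, against 102 and 91 at tlr4bb-sg1. The number of alleles at equal indel reads was not computed. The tlr4ba site thus listed more alleles, at far more indel reads, and had fewer in effect. Of its alleles, 51 of 52 in fish 3 and 69 of 75 in fish 4 held under 0.1% of reads.

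**Figure D2:**
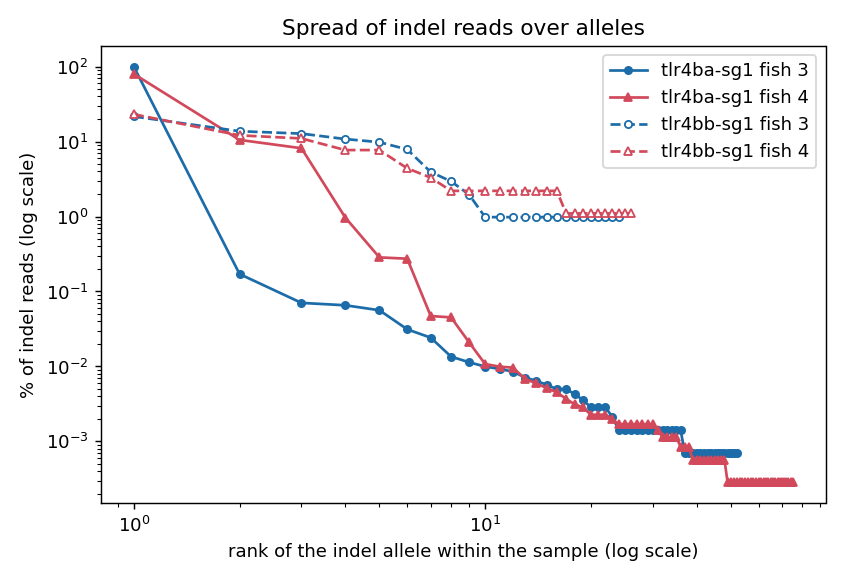
Share of indel reads taken by each indel allele against its rank within the sample, both on log scales. Filled symbols with solid lines are tlr4ba-sg1, open symbols with dashed lines tlr4bb-sg1, circles fish 3 and triangles fish 4. The tlr4ba-sg1 curves start at 99.5% and 79.6% and fall below 0.01% of indel reads, and the tlr4bb-sg1 curves start at 21.6% and 23.1% and end at alleles of 1 read.

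Alleles that each held under 0.1% of classified reads, called low-count here, made up 0.202% and 0.170% of reads in fish 3 and 4 at tlr4ba-sg1, against 0.044% and 0.045% at tlr4bb-sg1. The intervals ran from 0.188 to 0.217 and from 0.158 to 0.182 at tlr4ba-sg1, and from 0.036 to 0.053 and from 0.037 to 0.056 at tlr4bb-sg1. Both tlr4ba samples lay above both tlr4bb samples, by 0.142 points on average (exact permutation p = 0.333, Benjamini-Hochberg p = 0.417). All indel alleles of tlr4bb-sg1 were low-count.

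Part of the low-count reads at tlr4ba-sg1 sat beside the leading alleles. Single deletions of 1 bp within 3 bp of position -14, led by -13:1D and -15:1D, held 254 reads in fish 3 and 424 in fish 4. This came to 0.182% and 0.151% of the reads of -14:1D itself. In fish 3 and fish 4, -13:1D was read 99 and 159 times and -15:1D 92 and 166 times. In fish 4, deletions of 5 bp at 6 other starts held 73 reads, or 0.254% of -17:5D. Within 3 bp of its start they held 53 reads (0.185%). Deletions of 12 bp at 5 other starts held 40 reads, or 0.108% of -14:12D, and within 3 bp of its start 38 reads (0.103%). Fish 3, with 1 read of -17:5D and 0 of -14:12D, had 0 reads in either set of neighbours. The other deletions of 5 and 12 bp were thus listed only in fish 4, where the large allele of the same length was abundant. For 1-bp deletions there is no such contrast, since -14:1D was abundant in both fish.

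Indel reads that neither removed base -14 nor belonged to -14:1I or -15:1I were also counted. Their summed shares were alike in the 2 tlr4ba fish, each within the interval of the other, although parts of the sum differed. These reads numbered 493 in fish 3 (0.129%, interval 0.118 to 0.141) and 590 in fish 4 (0.130%, interval 0.120 to 0.141). The same count at tlr4bb-sg1 was 101 (0.0432%, interval 0.0356 to 0.0525) and 91 (0.0452%, interval 0.0368 to 0.0555). This set was defined after the values were seen, and no test was made of it. At tlr4ba-sg1, single 1-bp deletions from position -11 on had 198 reads in fish 3 and 102 in fish 4. Those within 3 bp of position -14, without -14:1D itself, had 254 and 424 reads. The allele -11:1D, with 7 and 4 reads, is in both counts. Fish 3 had 381469 classified reads and fish 4 had 452400, so the shares of these parts differed in opposite directions. The like sums thus do not show like levels of each part.

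At tlr4ba-sg1 the low-count alleles of the 2 fish overlapped, at uneven counts. Of the 51 low-count alleles of fish 3, 30 were also read in fish 4 (58.8%, interval 45.2 to 71.2), and of the 69 of fish 4, 29 were read in fish 3 (42.0%, interval 31.1 to 53.8). Shared alleles made up 95.7% of the low-count reads in fish 3 and 78.2% in fish 4. The fish 3 share counts the 240 reads of -14:1I, which had 1 read in fish 4, and when an allele needed at least 2 reads in a fish to count there, the shares were 64.9% and 79.5%. Over the 32 low-count alleles with 5 or more reads in all, chi-square between the fish was 15.3 per degree of freedom, far above the value near 1 that counting noise gives. These alleles include -14:1I, at 240 reads in fish 3 and 1 in fish 4. They also include neighbours of -17:5D and -14:12D with 0 reads in fish 3.

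The more abundant low-count indels of the 2 tlr4bb-sg1 fish did not differ beyond counting noise, at no more than 22 reads per allele in a fish. Of the 24 alleles of fish 3, 13 were also read in fish 4 (54.2%, interval 35.1 to 72.1), and these were 13 of the 26 alleles of fish 4 (50.0%, interval 32.1 to 67.9). In fish 3 the shared alleles held 91 of 102 indel reads (89.2%), and in fish 4 they held 73 of 91 (80.2%). The 6 most abundant were 1-bp deletions in both fish. In fish 3 and fish 4, -12:1D was read 22 and 21 times, -10:1D 14 and 11 times, and 9:1D 13 and 10 times. In the same order, 6:1D was read 11 and 7 times, 1:1D 10 and 7 times, and 7:1D 8 and 4 times. Fish 3 was above fish 4 in each of these counts and was also the deeper library. Over the 9 alleles with 5 or more reads in all, chi-square was 0.254 per degree of freedom, so these counts differed by less than counting noise. Chi-square rises with read number for the same difference in shares, so this value cannot be set against the 15.3 of tlr4ba-sg1. Over the 60 rows of the whole table with 10 or more reads, substitutions and Other included, chi-square was 34.9 per degree of freedom, and the samples were counted as 2. Among the 29 alleles of tlr4ba-sg1 that were low-count and read in both fish, Spearman's rho between their reads was 0.59, and among the 13 of tlr4bb-sg1 it was 0.93. Over all low-count alleles of either fish, rho was 0.17 for 90 alleles at tlr4ba-sg1 and 0.33 for 37 at tlr4bb-sg1. These correlations run over alleles of 1 amplicon, which share a library and a sequence context, and are descriptions without a test.

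Low-count deletions away from base -14 were also compared between the fish of each site. For the 10 tlr4ba-sg1 alleles with 5 or more reads that were single 1-bp deletions from position -11 on, chi-square was 1.34 per degree of freedom. These alleles held fewer reads than the 32 above, so this value cannot be set against 15.3. Their summed share of classified reads did differ between the tlr4ba fish, as the counts of 198 and 102 reads show. At tlr4bb-sg1, chi-square for such deletions was 0.119 per degree of freedom over 5 alleles. The most abundant of these at tlr4ba-sg1 was 8:1D, with 79 reads in fish 3 and 34 in fish 4, followed by 4:1D with 34 and 16. Both alleles had more than 2 reads in fish 3 for each read in fish 4, and fish 3 had 237907 reads without any variant against 98442 in fish 4.

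**Figure D3:**
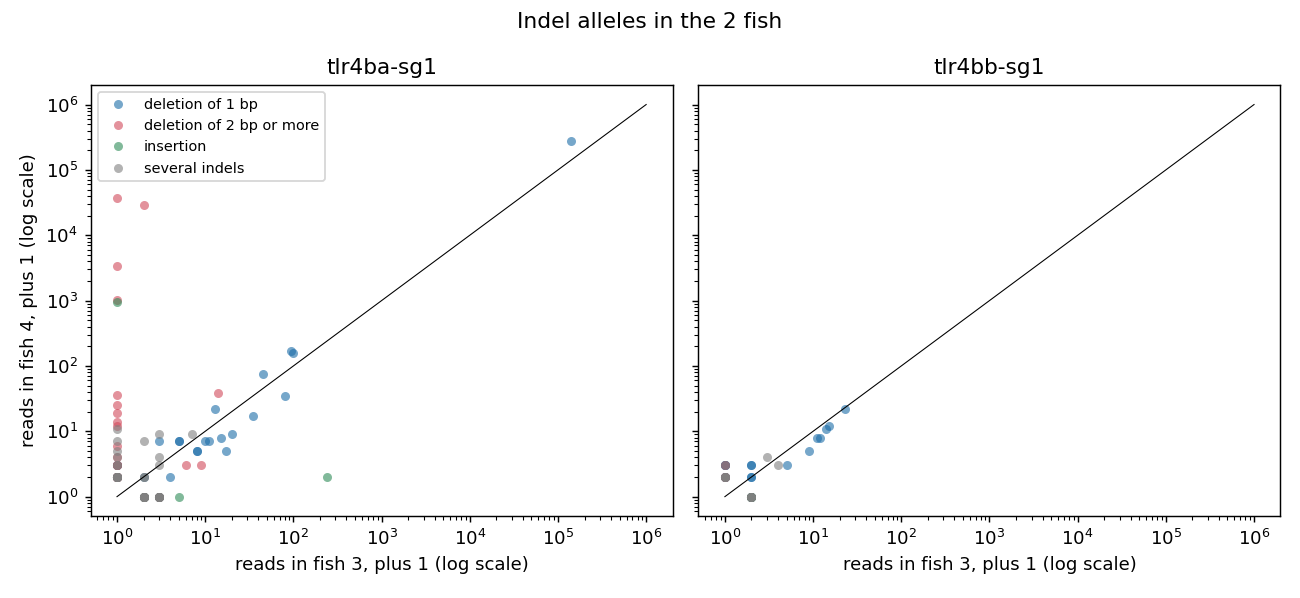
Reads of each indel allele in fish 4 against fish 3, each plus 1, on log scales, with tlr4ba-sg1 on the left and tlr4bb-sg1 on the right. Colours mark deletions of 1 bp, deletions of 2 bp or more, insertions and alleles of several indels, and the line marks equal reads. At tlr4ba-sg1 the 4 leading longer deletions stand at the left edge (0 or 1 read in fish 3, up to 37039 in fish 4), and at tlr4bb-sg1 the points from 4 to 22 reads lie close to the line.

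The further 1-bp deletions could also be counted on the reads that carried -14:1D. Over the 16 positions from -11 to 11 at which a single 1-bp deletion was listed, 16 reads of fish 3 held both -14:1D and a further 1-bp deletion, or 11.4 per 100000 reads of -14:1D (interval 7.05 to 18.6). The same deletions alone had 198 reads, or 83.2 per 100000 reads without any variant (interval 72.4 to 95.6). In fish 4 the rates were 14.6 per 100000 with -14:1D (41 reads, interval 10.8 to 19.8) and 104 alone (102 reads, interval 85.4 to 126). Summed over these positions, the deletions were listed less often on -14:1D reads, by 7.27 times in fish 3 and 7.09 times in fish 4. The positions were those with a deletion listed alone, so their choice was not neutral, and the direction did not hold at every position. The allele 8:1D weighs most in this gap, with 2 reads on -14:1D in each fish. Without position 8 the ratios were 4.99 and 4.97. At tlr4bb-sg1, 1-bp deletions from -11 on stood at 26.1 per 100000 reads without any variant in fish 3 (interval 20.3 to 33.6) and 23.4 in fish 4 (interval 17.5 to 31.2). This window leaves out -12:1D, the most abundant indel allele of tlr4bb-sg1, with 22 reads in fish 3 and 21 in fish 4. How reads with several indels were assigned to alleles or to the row Other was not given in the sources used here, and its part in these rates was not tested.

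**Figure D4:**
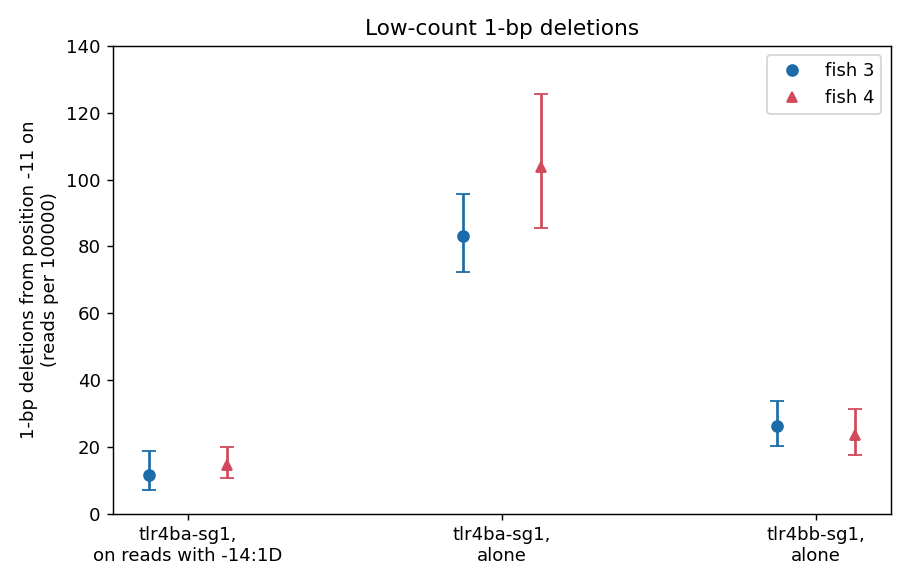
Rate of 1-bp deletions from position -11 on, in reads per 100000, with 95% Wilson intervals as bars. From left to right are tlr4ba-sg1 reads that also carry -14:1D, tlr4ba-sg1 reads with such a deletion alone and tlr4bb-sg1 reads with such a deletion alone, with fish 3 as circles and fish 4 as triangles. The 2 fish lie close together in each set, at 11.4 and 14.6, at 83.2 and 104, and at 26.1 and 23.4. The window leaves out -12:1D, the leading tlr4bb-sg1 allele.

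The listed alleles of several indels differed between the 2 sites. Over both fish, tlr4ba-sg1 listed 43 such alleles with 106 reads, and 18 of the 43 contained -14:1D. They were led by -14:1D,4:1D (6 reads in fish 3, 8 in fish 4), -14:1D,-6:1D (0 and 10) and -14:1D,11:1D (2 and 8). By reads, 21 of 35 in fish 3 and 51 of 71 in fish 4 contained -14:1D. As an allele by itself -14:1D already held 36.6% and 62.0% of classified reads. Whether alleles of several indels contained it more often than its abundance gives was not tested. An inserted length equal to the deleted length, which leaves the amplicon length unchanged, was found in 8 of the 43 alleles (10 of 106 reads). At tlr4bb-sg1 all 12 alleles of several indels, with 21 reads, kept the length unchanged. The most abundant were -3:5I,2:5D with 2 reads in fish 3 and 3 in fish 4, and 4:1I,9:1D with 3 and 2. None of the tlr4bb-sg1 alleles contained -14:1D, but position -14 cannot be matched between the sites. The part of that deletion in the contrast of alleles of several indels was not tested. Alleles of several indels made up 0.0249% of indel reads in fish 3 and 0.0201% in fish 4 at tlr4ba-sg1, against 9.80% and 12.1% at tlr4bb-sg1. As a share of classified reads the order turned, with 0.00918% and 0.0157% at tlr4ba-sg1 against 0.00428% and 0.00547% at tlr4bb-sg1.

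Substitutions were listed only on reads without an indel, at the 14 positions from -8 to 6, and each of the 42 possible single substitutions was read at both sites. Substitution-only reads made up 0.794% of classified reads in fish 3 and 0.322% in fish 4 at tlr4ba-sg1, against 1.65% and 2.28% at tlr4bb-sg1 (difference -1.41 points, exact permutation p = 0.333, Benjamini-Hochberg p = 0.417). Since indel reads list no substitutions, the share of reads without an indel was also taken. On that base the values were 1.26% and 1.46% at tlr4ba-sg1 and 1.65% and 2.28% at tlr4bb-sg1, and the difference was -0.608 points. The groups did not overlap on either base.

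The gap was smaller without the leading substitutions. Without the 5 leading substitution alleles of each site, 0.898% and 0.802% of the reads without an indel in fish 3 and 4 were left at tlr4ba-sg1, and 0.864% and 0.969% at tlr4bb-sg1. The samples of the 2 sites then overlapped, and the difference was -0.0667 points, an alternative chosen after seeing the data. The alleles left out were the largest by these same shares, so the smaller gap follows in part from their choice. The median single substitution stood at 0.0176% and 0.0155% at tlr4ba-sg1, and at 0.0158% and 0.0172% at tlr4bb-sg1.

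The leading substitutions are named by position and read letter. At tlr4ba-sg1, SNV:-2T had the highest mean share over the 2 fish, with 95 reads in fish 3 (0.0394% of reads without an indel) and 206 in fish 4 (0.206%), 5.23 times as common in fish 4. In fish 3 and fish 4, SNV:-4T was read 244 and 137 times, SNV:4T 232 and 140 times, SNV:-3T 123 and 129 times, and SNV:-2A 170 and 43 times. SNV:-4T was the most abundant in fish 3 and SNV:-2T in fish 4. At tlr4bb-sg1 the substitution SNV:1G, next to position 0, had the highest mean share, with 999 reads in fish 3 (0.428%) and 523 in fish 4 (0.260%). SNV:-5A was read 250 times in fish 3 (0.107%) and 774 times in fish 4 (0.385%), and SNV:-6A 118 times (0.0505%) and 749 times (0.372%). In the same order, SNV:-8T was read 235 and 352 times and SNV:-4C 233 and 240 times. Of these 5, SNV:1G was the most abundant in fish 3 and SNV:-5A in fish 4, and SNV:-5A and SNV:-6A were 3.60 and 7.37 times as common in fish 4.

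Most single substitutions with 20 or more reads, the leading ones included, differed by no more than 2 times between the fish. At tlr4ba-sg1, 36 single substitutions had 20 or more reads in all, and fish 4 was over 2 times fish 3 in 2 of them (5.56%) and under 0.5 times in 3 (8.33%). The median ratio was 0.893. At tlr4bb-sg1, fish 4 was over 2 times fish 3 in 6 of 37 (16.2%) and under 0.5 times in 0 (0%), with a median of 1.10. Chi-square between the fish over the 42 single substitutions was 7.32 per degree of freedom at tlr4ba-sg1 and 24.5 at tlr4bb-sg1. Without the 5 leading ones it was 0.914 at tlr4ba-sg1, which is within sampling noise, and 5.62 at tlr4bb-sg1. The 5 were picked by these same shares, so the fall follows in part from their choice. Chi-square also rises with read number, so these values cannot be set against each other between sites or sets. SNV:5T was among the substitutions left at tlr4bb-sg1, with 55 reads in fish 3 and 256 in fish 4, or 5.41 times the share. SNV:3A was too, with 22 and 82 reads, or 4.33 times the share.

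**Figure D5:**
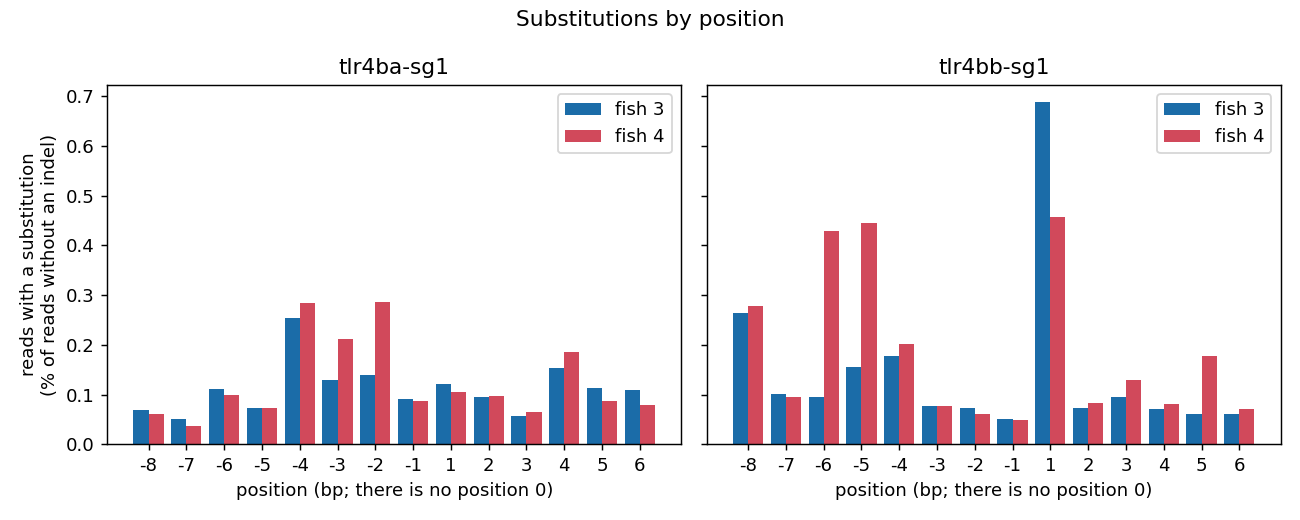
Share of reads without an indel that carry a substitution at each position, alone or with others, with tlr4ba-sg1 on the left and tlr4bb-sg1 on the right, and bars for fish 3 and fish 4. The highest bar at tlr4ba-sg1 is 0.286%, at position -2 of fish 4. The highest bars at tlr4bb-sg1 are position 1 (0.688% in fish 3, 0.456% in fish 4) and positions -5 and -6 of fish 4 (0.445% and 0.429%).

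Among pairs of substitutions on 1 read, the most abundant at tlr4ba-sg1 by mean share over the 2 fish was SNV:-3A,-1A. It had 17 reads in fish 3 and 5 in fish 4, where other pairs had up to 6. At tlr4bb-sg1, SNV:1G,-8T had 287 reads in fish 3 and 99 in fish 4. From the shares of its 2 substitutions 3.13 and 1.57 reads would be expected if they fell on reads independently, so that the pair was read 91.8 and 63.1 times as often. The pair of tlr4ba-sg1 was 205 and 144 times as frequent as its shares give, at 0.083 and 0.0348 reads expected. Every pair with 10 or more reads over the 2 fish exceeded its expected reads in both fish. No such pair had more than 3.13 expected reads in a fish, so the limit of 10 reads itself picked pairs in excess. Pairs with fewer reads were not compared, and how general such an excess is was not tested. At tlr4bb-sg1, SNV:4G,-2G had 18 reads in fish 3 and 6 in fish 4. This was 937 and 347 times its expected reads, which were only 0.0192 and 0.0173. Reads with 3 or more substitutions made up 5.78% and 4.396% of substitution reads at tlr4ba-sg1, and 3.74% and 3.27% at tlr4bb-sg1. In 40.6% and 39.1% of these reads at tlr4ba-sg1, and in 34.0% and 34.7% at tlr4bb-sg1, all the substituted letters of the read were the same letter.

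The kind of substitution differed more between the fish of tlr4bb-sg1 than between those of tlr4ba-sg1. Since 3 letters were read as substitutions at each of the 14 positions, the fourth was taken as the unsubstituted base, and transitions (A with G, C with T) could be told from transversions. Transitions made up 34.0% of single-substitution reads in fish 3 (interval 32.2 to 35.9) and 28.7% in fish 4 (interval 26.3 to 31.3) at tlr4ba-sg1. At tlr4bb-sg1 they made up 52.3% in fish 3 (interval 50.5 to 54.0) and 27.4% in fish 4 (interval 26.1 to 28.8). Leading alleles weigh in this tlr4bb-sg1 gap. SNV:1G, a transition, was read 999 times in fish 3 and 523 times in fish 4. The transversions SNV:-5A and SNV:-6A had 250 and 118 reads in fish 3 and 774 and 749 in fish 4. The gap without these alleles was not tested. Alleles of several substitutions list their positions from low to high at tlr4ba-sg1 (340 of 340 alleles) and from high to low at tlr4bb-sg1 (399 of 399). The strand on which the letters are written at each site was not given in the sources used here, and the share of transitions does not depend on it.

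Reads in the row Other, which have no described allele, were far more common at tlr4bb-sg1. They made up 0.129% of all reads in fish 3 and 0.223% in fish 4 at tlr4ba-sg1, against 3.65% and 2.31% at tlr4bb-sg1. The groups did not overlap, and the difference was -2.81 points (exact permutation p = 0.333, Benjamini-Hochberg p = 0.417). In order of this share, the tlr4ba-sg1 samples of fish 3 and 4 stood at places 16 and 12 of the 20 samples of the series, and those of tlr4bb-sg1 at places 1 and 3. The 16 samples of the other guides ran from 0.0591% to 2.62% with a median of 0.323%, and the 4 samples of the second tlr4ba and tlr4bb guides in fish 3 and 4 ran from 0.105% to 0.454%. At tlr4bb-sg1 there were 8861 Other reads to 102 indel reads in fish 3 and 4764 to 91 in fish 4. The near absence of indels at that site thus holds for the described alleles. With every Other read counted as an indel the mean indel percent was 57.4% at tlr4ba-sg1 and 3.03% at tlr4bb-sg1, still 54.4 points apart.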

How the data were processed

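The values are whole-number read counts for each allele as deposited by the authors, in a separate table for every guide whose columns are fish, per the file headers. Products of 200 to 280 bp were amplified from 50 to 100 ng of DNA, per the labels' protocols. Genome build GRCz10 and R 4.0.5 are named in the submitters' processing notes, and the aligner, the allele caller and any filter are not given in the sources used here. Columns were matched to samples through guide and fish number.

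Shares, allele spreads and positions were computed from the counts with Python 3.11.15, numpy 2.4.6 and scipy 1.17.1, and checked on simulated data with known shares. Alleles of the 2 sites cannot be matched, even where they have the same name, so no count model across alleles was used. Expected alleles at equal depth are hypergeometric expectations. Differences are tlr4ba-sg1 minus tlr4bb-sg1.

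The samples, measures and lists were chosen with earlier results of these data known. The alleles named are, per site, the 10 indel alleles and 5 substitution alleles with the highest mean share, the top allele of each fish, and up to 5 insertions or alleles of several indels with 5 or more reads in a fish. The substitution pairs, 4:1D and -11:1D at tlr4ba-sg1, and SNV:5T and SNV:3A at tlr4bb-sg1 were named after their values were seen. With 2 fish numbers, pairing could not be checked by correlation.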

Additional observations from a re-analysis of the deposited data

Results flagged for a closer look

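For 2 of the 10 measures, the difference between tlr4ba and tlr4bb ran one way with the first guides and the other way with the second guides. This held in both fish, and the 2 measures were picked for it. The top allele percent was higher at tlr4ba by 77.9 points in fish 3 and 56.5 points in fish 4 with the first guides, while with the second guides the difference was -16.98 and -31.3 points. The effective number of indel alleles differed by -7.82 and -8.43 with the first guides and by 0.283 and 0.871 with the second guides. These opposite directions were not tested, and at tlr4bb-sg1 there were only 102 and 91 indel reads behind them.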

How the results depend on the processing

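With the fish number as a replicate block, the indel difference is 57.3 points by design (p = 0.5 by an exact permutation of signs, and 2 pairs allow no lower p). Of 108 alternative values of the 10 measures, 101 kept their direction, but part of this count was fixed in advance. Replicate-block values repeat the main difference, and counting Other as unedited leaves shares of indel reads as they were. For the 8 measures whose groups did not overlap, leaving out a sample cannot turn the direction. The count is thus no measure of robustness. The difference in 1-bp deletions turned to -1.79 points without alleles of 1 read, -5.54 without alleles of several indels, -39.4 with only indels within 10 bp and -54.8 without -14:1D, and ran from -5.13 to 14.9 with each sample left out. The difference in deleted length ran from -0.28 to 1.24 bp with each sample left out, and the difference within a window of 15 bp was 6.80 points. The indel difference was 4.11 points with only indels within 10 bp and 21.0 without -14:1D. Low-count indels differed by 0.0188 points within 10 bp and by 0.736 points with a limit of 1%. With alleles of at least 2 reads only, the shared low-count alleles were 54.8% of those of tlr4ba-sg1 fish 4 and 100% of the 9 of tlr4bb-sg1 fish 3. Without alleles under 0.1%, tlr4bb-sg1 had no indel allele left, so only the indel percent has a value (57.2 points). For tlr4bb-sg1, 102 and 91 indel reads limit every share of indel reads.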
